A study of Mus musculus with 2 samples.

Results

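Cathepsins are proteases of the lysosome, and cystatin C is a secreted protein that blocks those of them that cut with a cysteine. The 10 genes described here are Ctsa, Ctsb, Ctsc, Ctsd, Ctsh, Ctsl, Ctss and Ctsz, which encode cathepsins, Lgmn, which encodes the asparagine-specific protease legumain, and Cst3, which encodes cystatin C. They were taken by symbol from the 27998 genes of the deposited count matrices, with no use of measured values, and all 10 were found in both matrices. These proteases are made as inactive precursors, sorted to endosomes and activated there at low pH. In microglia, the macrophages that live in brain and spinal cord, they digest engulfed material, process antigens and, when secreted, cut proteins outside the cell.

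Cells positive for yellow fluorescent protein were sorted from mouse spinal cord and made into 10x Genomics 3′ libraries. The library labelled Runx1 knock-out (KO-labelled below) came from mice given tamoxifen at 1 mg per day in 5 daily injections, and the library labelled wild type (WT-labelled below) from mice given vehicle. Both libraries carry the same strain labels, C57BL/6J and Cx3cr1-CreERT2-YFP::flxRunx1, so that both groups share a tamoxifen-dependent Cre recombinase and a fluorescent protein placed under the Cx3cr1 gene and a floxed Runx1 allele. Cords were taken 4 weeks after the first injection and digested with collagenase at 37 °C for 30 min. Each group had 1 library, the ages and the number of animals are not given in the sources used here, and tamoxifen, genotype and library cannot be told apart. No difference between the groups could therefore be tested, and each interval below is a 95% interval for counting error alone.

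The KO-labelled library held 2604 barcodes with a median of 3715.5 UMIs (unique molecular identifiers, each standing for 1 captured RNA molecule), and the WT-labelled library held 4582 barcodes with a median of 6376 UMIs. They had 9 barcode sequences in common. Cells were clustered without the cathepsin, legumain and cystatin genes and named from marker lists. All 12 microglia markers were detected in microglia-like and in endothelial-like cells of both libraries, so detection alone does not set a class apart. They summed to 34166 and 30643 UMIs per 1000000 in microglia-like cells of the KO-labelled and WT-labelled libraries. In endothelial-like cells they summed to 4467 and 11419. There were 1351 microglia-like cells in the KO-labelled library and 2152 in the WT-labelled library, 841 and 1620 endothelial-like cells, and 126 and 179 pericyte or smooth muscle-like cells. The libraries stood apart within these classes: 1347 of the microglia-like cells of the KO-labelled library formed cluster 2 and all those of the WT-labelled library were in cluster 0, and most endothelial-like cells were in cluster 3 (788 cells of the KO-labelled library) or cluster 1 (1427 cells of the WT-labelled library). Levels are given as CPM, the UMIs of a gene per 1000000 UMIs of the class in that library. Runx1, the targeted gene, had 180 CPM (170 to 191) in microglia-like cells of the KO-labelled library and 93.0 CPM (88.3 to 98.0) in those of the WT-labelled library, and so was not lower under the knock-out label. The tags come from 3′ ends and the deleted part of Runx1 is not named in the labels, so this level does not check the label, and no direction below is read as an effect of losing Runx1.

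Promoter windows are shown for Ctss, one of the 2 members past 1.5-fold between the libraries in microglia-like cells, and for Lgmn and Cst3, the 2 members with the highest ratio. They are RefSeq windows on build GRCm38.p6, 250 bases before to 50 bases after an annotated start, written 5′ to 3′ on the gene's strand. Capitals mark matches, on either strand, to CACGTG, the core of the element bound by the lysosomal regulators TFEB and TFE3, to GAGGAAGT, a form of the site of the macrophage factor PU.1, and to TGTGGT, the core recognised by Runx proteins. Ctss is at chr3:95526536-95526835 on the plus strand. The 2 Lgmn windows are at chr12:102439679-102439978 and chr12:102439043-102439342 on the minus strand, and Cst3 is at chr2:148875463-148875762 on the minus strand.
Ctss: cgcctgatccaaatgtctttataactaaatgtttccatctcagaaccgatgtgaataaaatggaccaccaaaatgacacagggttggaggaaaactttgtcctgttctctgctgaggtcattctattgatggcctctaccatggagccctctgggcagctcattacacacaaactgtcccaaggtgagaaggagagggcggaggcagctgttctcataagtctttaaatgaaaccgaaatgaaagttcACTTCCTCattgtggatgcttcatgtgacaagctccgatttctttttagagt
Lgmn, upstream start: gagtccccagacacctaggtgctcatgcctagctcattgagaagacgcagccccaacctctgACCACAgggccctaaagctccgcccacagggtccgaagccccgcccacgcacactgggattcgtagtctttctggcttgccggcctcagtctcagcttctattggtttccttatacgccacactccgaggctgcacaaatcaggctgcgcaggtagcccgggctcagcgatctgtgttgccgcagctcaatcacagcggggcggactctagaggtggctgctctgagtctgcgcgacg
Lgmn, downstream start: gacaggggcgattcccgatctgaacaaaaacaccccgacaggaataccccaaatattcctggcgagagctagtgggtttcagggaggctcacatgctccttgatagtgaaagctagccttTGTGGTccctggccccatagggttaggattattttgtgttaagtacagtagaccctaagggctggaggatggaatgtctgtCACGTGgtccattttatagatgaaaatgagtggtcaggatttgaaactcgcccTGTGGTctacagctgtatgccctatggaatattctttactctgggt
Cst3: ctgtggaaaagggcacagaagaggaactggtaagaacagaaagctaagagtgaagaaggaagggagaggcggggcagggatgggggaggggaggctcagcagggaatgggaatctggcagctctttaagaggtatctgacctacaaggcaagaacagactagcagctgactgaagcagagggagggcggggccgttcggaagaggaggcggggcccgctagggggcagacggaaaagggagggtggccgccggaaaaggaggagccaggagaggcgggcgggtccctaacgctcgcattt

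The Ctss window held GAGGAAGT from position -2, counted from the start with no position zero, and neither of the other motifs. The upstream Lgmn window held TGTGGT at -188, and the downstream one TGTGGT at -130 and 5 and CACGTG at -49. The Cst3 window held none of the 3. Windows were at hand for 8 of the 10 genes. These 8 had 10 windows. CACGTG was in 4 of the 10 (Ctsa, Ctsd, Ctsl and Lgmn, 1 each) and in 7.15% of all 32851 promoter windows. GAGGAAGT was in 2 of the 10 (Ctsc and Ctss) and in 3.20% of all windows, and TGTGGT in 3 of the 10 (1 of Ctsa and 2 of Lgmn) and in 16.8%. The longer palindromic form of the lysosomal element, which contains CACGTG, was in 0 of the 10 and in 0.326% of all windows. These are matches of letters, with no measurement of binding.

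On GRCm38, Ctss spans 95526786 to 95556403 of chromosome 3 (plus strand), Ctsh 90054152 to 90076089 of chromosome 9 (plus strand), Lgmn 102394084 to 102439813 of chromosome 12 (minus strand) and Cst3 148871722 to 148875692 of chromosome 2 (minus strand). All 4 are annotated as protein-coding.

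Cst3 was the most abundant gene of microglia-like cells in both libraries. It stood at 52970 CPM (52788 to 53152) in the KO-labelled library and at 40656 CPM (40555 to 40756) in the WT-labelled library, rank 1 of all genes in each. The 10 genes together took 7.30% of the UMIs of microglia-like cells in the KO-labelled library and 6.32% in the WT-labelled library. Cst3 alone was 72.6% (72.4 to 72.7) and 64.3% (64.2 to 64.4) of those UMIs. Counts of 3′ tags do not grow with transcript length, so levels are compared between genes unscaled.

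Next in abundance were 3 protease genes. Ctsd, which encodes an aspartic protease, had 6542 CPM in the KO-labelled library and 6109 CPM in the WT-labelled library, rank 12 in both. Ctss, whose protease trims the invariant chain of MHC class II, had 4414 CPM (rank 20) and 6946 CPM (rank 8). Lgmn had 3977 CPM (rank 22) and 3005 CPM (rank 40). Ctss thus lay below Ctsd in the KO-labelled library and above it in the WT-labelled library.

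The other 6 genes were lower in both libraries. Ctsb, which encodes a protease that cuts within proteins and also removes dipeptides from their ends, had 1559 CPM in the KO-labelled library and 1880 CPM in the WT-labelled library, and Ctsz, which encodes a carboxypeptidase, 1224 and 1650 CPM. Below them were Ctsh, an aminopeptidase gene, Ctsl, an endopeptidase gene, Ctsc, whose product activates granule serine proteases, and Ctsa, whose product is a carboxypeptidase that also protects lysosomal sialidase and galactosidase. In the KO-labelled library the intervals of Ctsl (500 to 536 CPM) and Ctsc (489 to 525 CPM) overlapped, as did those of Ctsc and Ctsa (464 to 499 CPM). In the WT-labelled library the 3 intervals were apart, at 681 to 707, 512 to 534 and 470 to 491 CPM.

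**Figure D1:**
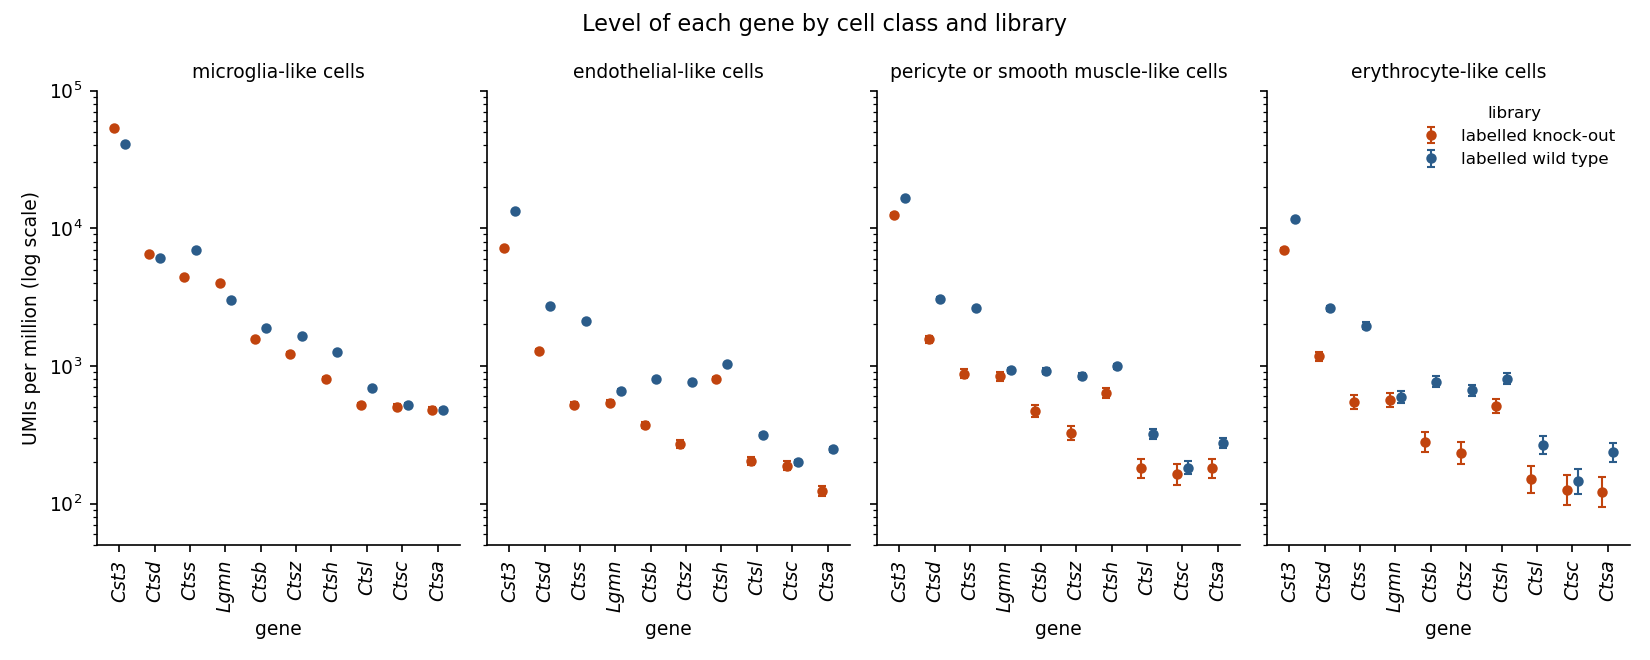
Level of each gene (UMIs per 1000000 UMIs of the class, log axis) in 4 cell classes, with the KO-labelled library left of the WT-labelled library; bars are exact Poisson 95% intervals. In microglia-like cells the genes span 482 to 52970 CPM in the KO-labelled library and 480 to 40656 CPM in the WT-labelled library.

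Between the libraries, the genes of microglia-like cells went in different directions. Ctss was 1.57-fold lower in the KO-labelled library, a log2 ratio of -0.65 (-0.67 to -0.63). Ctsh was 1.58-fold lower, with 805 CPM (782 to 827) in the KO-labelled library and 1270 CPM (1253 to 1288) in the WT-labelled library, a log2 ratio of -0.66 (-0.70 to -0.61). These were the 2 members past 1.5-fold lower, and 0 were past 1.5-fold higher. Of the 5751 genes with at least 20 CPM in 1 library, 12.5% were past 1.5-fold lower and 8.09% past 1.5-fold higher, so 2 of 10 is near the background and is not a result about the members as a list. The median log2 ratio was -0.16 over the members and -0.04 over all 5751 genes.

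Lgmn and Cst3 were higher in the KO-labelled library, each by less than 1.5-fold. The ratio was 1.32-fold for Lgmn (log2 0.40, 0.38 to 0.43) and 1.30-fold for Cst3 (log2 0.38, 0.38 to 0.39). Ctsd was nearly level, at 1.07-fold (log2 0.10, 0.08 to 0.12). Ctsz, Ctsl and Ctsb were lower by 1.35-fold, 1.34-fold and 1.21-fold, Ctsl having 518 CPM in the KO-labelled library and 694 CPM in the WT-labelled library. For Ctsa (482 and 480 CPM) and Ctsc (507 and 523 CPM) the intervals of the log2 ratio, -0.06 to 0.06 and -0.11 to 0.01, include equality. The 12 microglia markers differed between the libraries too, with log2 ratios of -0.39 (Siglech) to 0.86 (P2ry12) and a median of 0.25. Lgmn and Cst3 were inside that range, and Ctss, Ctsh, Ctsz (log2 -0.43) and Ctsl (log2 -0.42) below it.

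**Figure D2:**
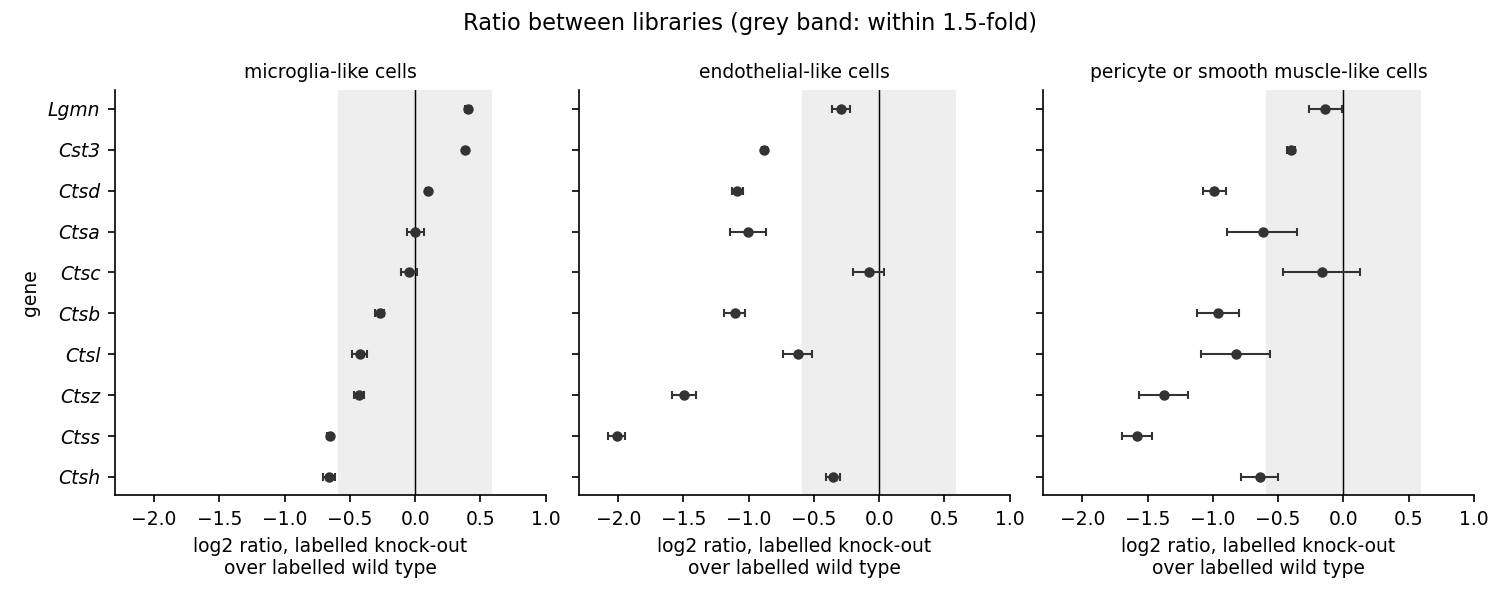
Log2 ratio of the KO-labelled over the WT-labelled library for each gene in 3 cell classes, with exact conditional binomial 95% intervals; the grey band is within 1.5-fold. In microglia-like cells the points run from -0.66 (Ctsh) to 0.40 (Lgmn), and in the other 2 classes all 10 are below 0.

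RNA of other cells also differed between the libraries. In microglia-like cells the 11 endothelial markers, all detected in both libraries and all lower in the KO-labelled one, summed to 1777 CPM in the KO-labelled library and 5437 CPM in the WT-labelled library. The median depth of these cells was 3464 UMIs in the KO-labelled library and 5530 UMIs in the WT-labelled library. A subset kept the microglia-like cells at or below their library's median share of endothelial marker UMIs (676 and 1076 cells). In it the log2 ratio was -0.67 for Ctss, -0.62 for Ctsh, 0.41 for Lgmn and 0.38 for Cst3. These values were close to those of all microglia-like cells. The median was set within each library, so the subset does not level endothelial RNA between the libraries. The part of such RNA in these ratios was not tested.

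Treating every endothelial marker UMI in a microglia-like cell as free RNA, composed like the library as a whole, put that RNA at 20.2% of their UMIs in the KO-labelled library and 52.1% in the WT-labelled library. With it taken out, the log2 ratio was 0.04 for Lgmn, 0.08 for Cst3 and -0.14 for Ctsd. Ctss, Ctsh, Ctsl and Ctsz were then past 1.5-fold lower, at -0.97, -0.80, -0.70 and -0.67. The share of all genes past 1.5-fold was not computed with free RNA taken out, so this count has no background beside it. Lgmn and Cst3 were close to equality under this estimate, and Ctss and Ctsh were lower in the KO-labelled library with and without it. The same kind of estimate can take out too much. In endothelial-like cells of the WT-labelled library it left Cst3 at a negative level, -3389 CPM. The part of free RNA in the ratios of microglia-like cells was not tested.

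At a finer resolution the microglia-like cells fell mainly into 5 sub-clusters, each almost wholly of 1 library, so they are parts of a library and not replicates. They differed in the cytokine gene Tnf, which had 582 CPM in sub-cluster 0 (937 cells) and 165 CPM in sub-cluster 8 (409 cells) of the KO-labelled library. In the WT-labelled library Tnf had 163 CPM in sub-cluster 2 (851 cells), 459 CPM in sub-cluster 3 (735 cells) and 283 CPM in sub-cluster 6 (582 cells). P2ry12, a receptor gene of resting microglia, ran the other way within each library, with 2807 and 4564 CPM in sub-clusters 0 and 8, and 2438, 1292 and 1736 CPM in sub-clusters 2, 3 and 6.

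Lgmn and Cst3 were lower in the sub-clusters with more Tnf, a gene that was not left out of the clustering. The sub-clusters also differed in depth. Their median UMIs were 3656 and 3072 in sub-clusters 0 and 8, and 4101, 5608 and 10144.5 in sub-clusters 2, 3 and 6. Lgmn had 3572 and 5215 CPM in sub-clusters 0 and 8 of the KO-labelled library, and 3742, 2520 and 2911 CPM in sub-clusters 2, 3 and 6 of the WT-labelled library. It varied 1.46-fold and 1.48-fold within the libraries, more than the 1.32-fold between them, and the libraries overlapped. Cst3 had 48275 and 67452 CPM in sub-clusters 0 and 8, and 46961, 37251 and 39483 CPM in sub-clusters 2, 3 and 6. Both sub-clusters of the KO-labelled library were above all 3 of the other. Ctsb went the opposite way to Cst3 within each library, with 1588 and 1457 CPM in sub-clusters 0 and 8, and 1776, 2074 and 1801 CPM in sub-clusters 2, 3 and 6.

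Ctsh hardly varied among sub-clusters of a library. It had 800 and 819 CPM in sub-clusters 0 and 8 of the KO-labelled library, and 1292, 1218 and 1294 CPM in sub-clusters 2, 3 and 6 of the WT-labelled library, a range of 1.02-fold and 1.06-fold within libraries beside 1.58-fold between them. Ctss had 4178 and 5133 CPM in sub-clusters 0 and 8, and 7652, 6708 and 6710 CPM in sub-clusters 2, 3 and 6. For both genes each sub-cluster of the KO-labelled library was below each sub-cluster of the WT-labelled library. The cells were also split at the median summed UMIs of Tnf, Il1b, Ccl3, Ccl4 and Cxcl2, genes chosen with these data known. At or below it (682 KO-labelled and 1147 WT-labelled cells) the log2 ratio was -0.62 for Ctss and -0.73 for Ctsh. Above it (669 and 1005 cells) the log2 ratios were -0.68 and -0.60. The part of cytokine expression in the lower levels was not tested.

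**Figure D3:**
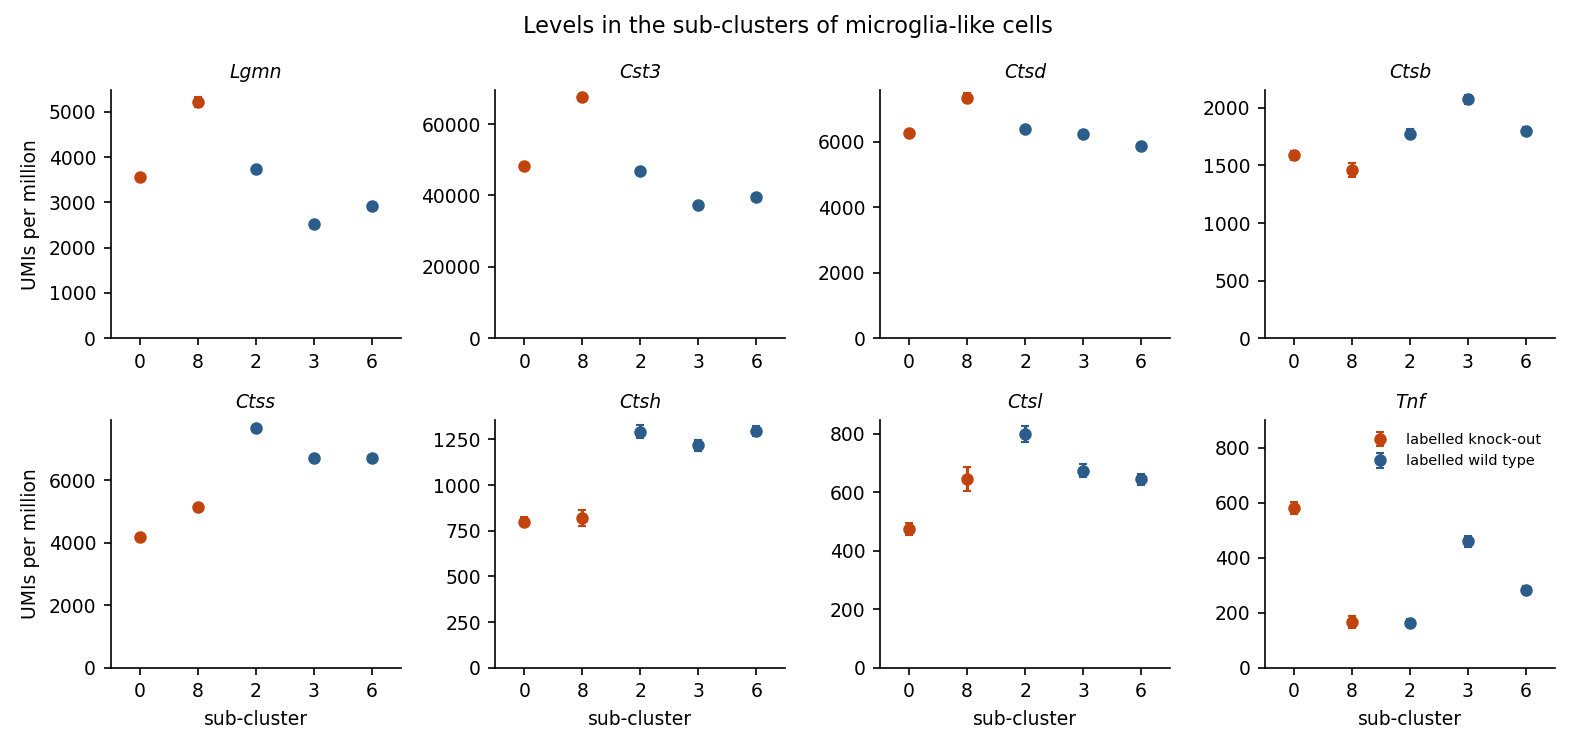
Levels (UMIs per 1000000 UMIs) of 7 of the genes and of Tnf in the sub-clusters of microglia-like cells, 0 and 8 of the KO-labelled library left of 2, 3 and 6 of the WT-labelled library; bars are exact Poisson 95% intervals. Lgmn varies 1.46-fold and 1.48-fold within the libraries, and Ctsh 1.02-fold and 1.06-fold.

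From cell to cell, most of the abundant members varied by more than counting error. With every cell thinned to 1500 UMIs, the variance of Cst3 over its mean was 10.2 in the KO-labelled library and 4.74 in the WT-labelled library, where counting error alone gives 1. This ratio grows with the level, so no order of variability between genes is read from it. The 5th to 95th percentile of cells held 38 to 131 Cst3 UMIs in the KO-labelled library and 37 to 93 in the WT-labelled library. The ratio was 1.89 and 1.43 for Ctsd, 1.81 and 1.47 for Lgmn, 1.74 and 1.57 for Ctss, and 1.06 and 1.03 for Ctsh, whose spread was close to that of counting alone.

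Of microglia-like cells, 70.7% (68.2 to 73.1) in the KO-labelled library and 84.3% (82.7 to 85.9) in the WT-labelled library had a Ctsh UMI after thinning. Unthinned, the shares were 91.1% and 99.4%. Endothelial-like cells, with a median of 3561 UMIs in the KO-labelled library and 5925 UMIs in the WT-labelled library, had thinned shares of 69.6% and 76.9%, so a Ctsh UMI did not set the microglia-like cells apart. Ctsa, Ctsc and Ctsl UMIs were found in 50.1% to 52.5% of thinned microglia-like cells of the KO-labelled library and 52.9% to 61.2% of those of the WT-labelled library.

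The genes moved together only weakly over single cells. The median Spearman correlation of the 45 pairs was 0.07 over 1351 cells of the KO-labelled library and 0.05 over 2152 cells of the WT-labelled library, and the highest was that of Ctss with Cst3, at 0.38 and 0.36. With the summed microglia markers Cst3 correlated at 0.63 and 0.45, and with the 5 cytokine and chemokine genes at -0.29 and -0.31. Lgmn correlated with those 5 genes at -0.09 and -0.15. Cells of a library share their free RNA and were thinned to a fixed total, so these values are descriptions, and weak ones in counts this sparse are no finding.

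**Figure D4:**
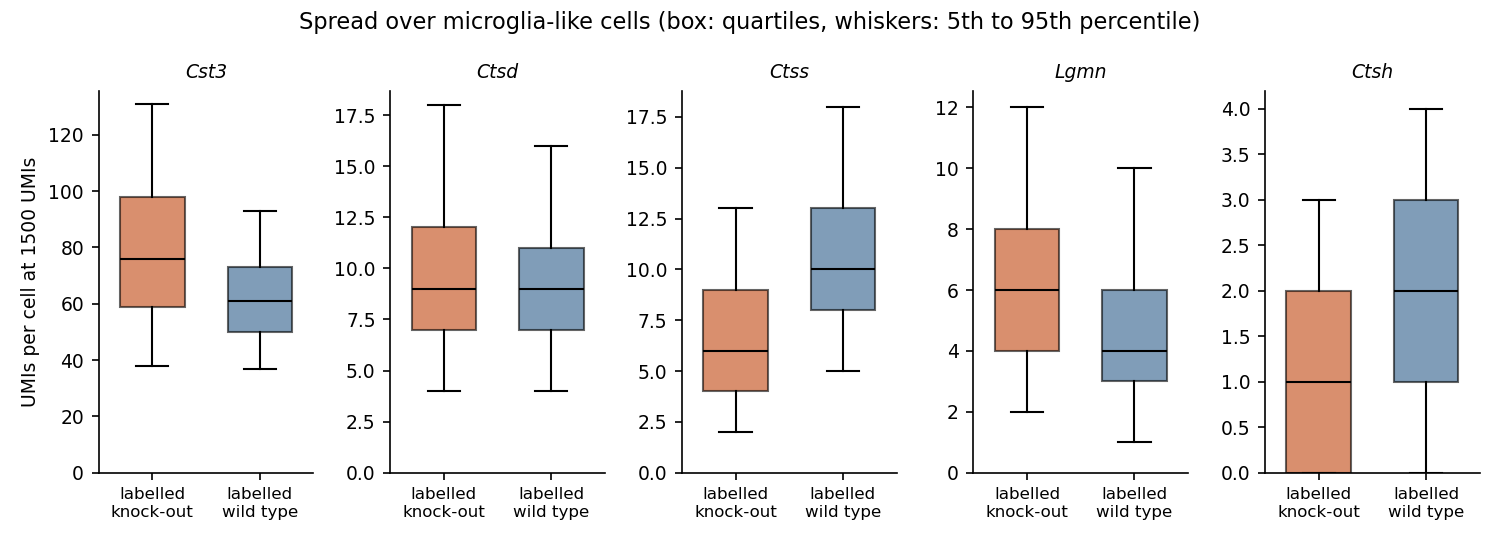
UMIs per microglia-like cell after thinning to 1500 UMIs for 5 genes, the KO-labelled library left of the WT-labelled library; boxes are quartiles, lines medians and whiskers the 5th to 95th percentile. The Cst3 box is wider in the KO-labelled library (59 to 98 UMIs) than in the WT-labelled library (50 to 73 UMIs).

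Outside microglia all 10 genes had lower levels in the KO-labelled library in the 3 other named classes with at least 20 cells in each library. In endothelial-like cells 7 of 10 were past 1.5-fold lower and 0 past 1.5-fold higher, beside 5.93% and 5.21% of 6276 genes, and the median log2 ratio was -0.94, beside 0.09 for all genes. Ctss had 521 CPM in the KO-labelled library and 2101 CPM in the WT-labelled library, 4.03-fold lower. Cst3 had 7178 and 13223 CPM, 1.84-fold lower, and Ctsd 1291 and 2741 CPM, 2.12-fold lower. The 3 within 1.5-fold were Ctsh, Lgmn and Ctsc, and for Ctsc (189 and 200 CPM) the interval of the log2 ratio, -0.20 to 0.04, includes equality.

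In pericyte or smooth muscle-like cells 7 of 10 were past 1.5-fold lower and 0 higher, beside 8.7% and 10.6% of 6780 genes. With the free RNA estimated from microglia markers taken out, only 6 members had a ratio there. Of these, Ctsd and Ctsz were past 1.5-fold lower and Ctsl past 1.5-fold higher, with no share of all genes computed under that step. Without that step Ctss was furthest apart there too, with 879 CPM in the KO-labelled library and 2626 CPM in the WT-labelled library. In erythrocyte-like cells (69 and 55 cells) 8 of 10 were past 1.5-fold lower and 0 higher, beside 20.5% and 13.4% of 5380 genes. Lgmn and Ctsc were not past 1.5-fold in any of these 3 classes. In the erythrocyte-like cells Lgmn had 566 CPM in the KO-labelled library and 596 CPM in the WT-labelled library, and Ctsc 126 and 146 CPM. Over all filtered cells Ctss and Ctsz were past 1.5-fold lower and 0 members higher, beside 1.82% and 4.3% of 6141 genes.

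Microglia markers were lower in the same cells. In endothelial-like cells the 12 markers, all detected in both libraries, summed to 4467 CPM in the KO-labelled library and 11419 CPM in the WT-labelled library. All 12 were lower in the KO-labelled library, with log2 ratios of -1.79 (Siglech) to -0.44 (P2ry12) and a median of -1.06. In pericyte or smooth muscle-like cells they summed to 6948 and 13143 CPM, 10 of 12 being lower. In erythrocyte-like cells they summed to 4669 and 10697 CPM, all 12 being lower. The part of microglial RNA in the lower levels of the members was not tested.

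The level of a gene in endothelial-like cells was therefore also expressed as a percent of its level in microglia-like cells of the same library. On this scale the 12 microglia markers spanned 7.07% to 16.7% in the KO-labelled library and 17.5% to 49.0% in the WT-labelled library. Ctss was inside that span, at 11.8% in the KO-labelled library and 30.2% in the WT-labelled library, as were Lgmn (13.6% and 22.0%) and Cst3 (13.6% and 32.5%). The levels of these 3 genes in endothelial-like cells were thus no higher, relative to microglia-like cells, than the highest of the microglia markers, and are read neither as endothelial expression nor as a difference in it.

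Ctsh stood apart from the microglia markers. It was at 99.7% (95.4 to 104.3) of the microglial level in endothelial-like cells of the KO-labelled library and at 80.7% (78.9 to 82.6) in those of the WT-labelled library, above every marker in both. Its level there was 803 CPM (775 to 831) in the KO-labelled library and 1026 CPM (1008 to 1044) in the WT-labelled library, 1.28-fold lower. In pericyte or smooth muscle-like cells it was at 79.3% and 78.2%, again above every marker. Ctsa was above every marker as well, at 25.6% and 51.5% in endothelial-like cells and 37.5% and 57.7% in pericyte or smooth muscle-like cells. In the WT-labelled library it was close to the highest marker, Trem2. There the endothelial-like value was 51.5% (49.3 to 53.8), beside 49.0% for Trem2. The pericyte or smooth muscle-like value was 57.7% (52.8 to 62.9), beside 54.0%. Ctsb, Ctsc, Ctsd, Ctsl and Ctsz were above every marker in endothelial-like cells of the KO-labelled library, at 19.7% to 39.2%, and inside the span in the WT-labelled library, at 38.2% to 46.4%.

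**Figure D5:**
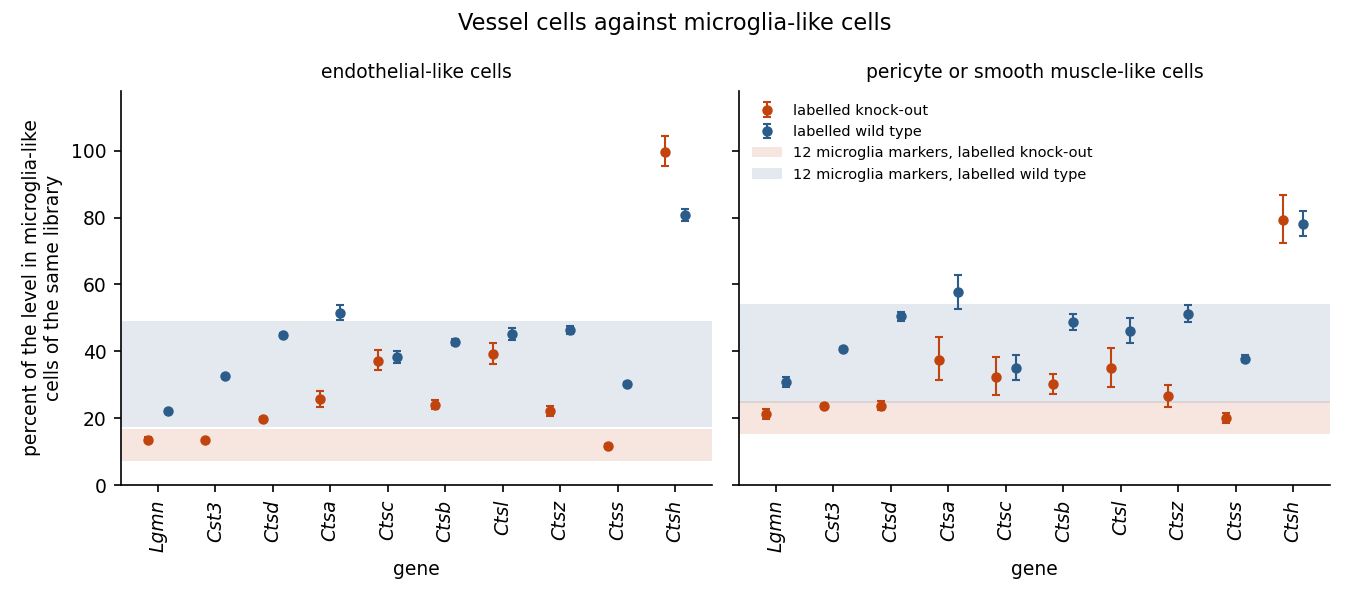
Level of each gene in endothelial-like and pericyte or smooth muscle-like cells as a percent of its level in microglia-like cells of the same library, the KO-labelled library left of the WT-labelled library, with 95% intervals. Shaded bands are the ranges of the 12 microglia markers. Ctsh is above its band in both libraries and both classes, at 78.2% to 99.7%.

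Taking out free RNA in endothelial-like cells, with microglia markers as its measure, put it at 22.4% of their UMIs in the KO-labelled library and 54.0% in the WT-labelled library. Ctsh then had 811 CPM in the KO-labelled library and 889 CPM in the WT-labelled library, a log2 ratio of -0.13. For Ctss the estimate took out more than was measured in both libraries, leaving -67.2 and -771 CPM, and for Lgmn and Cst3 in the WT-labelled library, so those 3 had no ratio. Of the other 7, Ctsa and Ctsz were past 1.5-fold lower and Ctsc and Ctsl past 1.5-fold higher. These are ratios of what the estimate left. It left Ctsa at 67.8 CPM in the KO-labelled library and 106 CPM in the WT-labelled library, and Ctsz at 129 and 245 CPM. Ctsl was left at 157 and 93.2 CPM and Ctsc at 143 and 11.9 CPM, the last below the minimum of 20 CPM. Without this step 7 of 10 were past 1.5-fold lower. The share of all genes past 1.5-fold was not computed under it, so these calls have no background beside them.

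Cst3 was also abundant in smaller groups of cells. Border-associated macrophage-like cells (6 in the KO-labelled library and 22 in the WT-labelled library) had Cst3 at 45922 and 28837 CPM. The cycling cluster (18 and 28 cells) had it at 35688 and 31093 CPM, with the lymphocyte genes Gzma and Nkg7 among its leading genes. Both groups also carried all 12 microglia markers, summing to 26692 and 22344 CPM in the first and 28335 and 25608 CPM in the second. As a percent of the level in microglia-like cells, Cst3 was inside the range of these markers in both groups and libraries. Its levels here are therefore not read apart from microglial RNA. Cluster 4 carried microglial and endothelial markers together and had 33.2% of its cells among the highest doublet scores. There Ctsb, Ctss and Ctsz were past 1.5-fold lower and 0 members higher, beside 4.5% and 9.19% of 6419 genes, and Cst3 had 29440 CPM in the KO-labelled library and 27013 CPM in the WT-labelled library.

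The rest of the cathepsin family had few UMIs in microglia-like cells. Of 17 other genes, 10 had no UMI in any filtered cell and 3 reached 20 CPM in microglia-like cells. Of those 3, 0 were past 1.5-fold, beside 12.5% lower and 8.09% higher of all 5751 genes. Ctsf, which encodes a cysteine cathepsin, had 175 CPM in the KO-labelled library and 177 CPM in the WT-labelled library, Ctso, another, 59.3 and 67.9 CPM, and Tinagl1, which encodes a matrix protein related to cathepsins, 38.1 and 47.6 CPM. In endothelial-like cells 1 of the 3 was past 1.5-fold higher and 1 past 1.5-fold lower, beside 5.21% and 5.93% of 6276 genes. With 3 genes, neither count is a result about the list. Tinagl1 had 403 CPM there in the KO-labelled library and 234 CPM in the WT-labelled library, 1.72-fold higher, and Ctsf 53.9 and 99.1 CPM, 1.84-fold lower.

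Of 28 genes of protease inhibitors, 6 reached 20 CPM in microglia-like cells, 4 of them past 1.5-fold lower, beside 12.5% of all 5751 genes. Ctla2a, which encodes an inhibitor similar to a cathepsin propeptide, had 102 CPM in the KO-labelled library and 411 CPM in the WT-labelled library. The serpin genes were Serpinb6a (23.8 and 58.5 CPM), Serpinb6b (6.86 and 20.4 CPM) and Serpinb9 (11.8 and 23.9 CPM). All 4 had higher levels in endothelial-like cells than in microglia-like cells of the same library. Ctla2a had 968 CPM there in the KO-labelled library and 1012 CPM in the WT-labelled library. The endothelial markers in microglia-like cells were also lower in the KO-labelled library, as given above. The part of endothelial RNA in the lower levels of these 4 genes was not tested. Cstb, the gene of the cytosolic inhibitor cystatin B, was 1.22-fold higher, with 188 and 155 CPM.

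Of 15 genes that sort lysosomal enzymes or work beside them, 12 reached 20 CPM in microglia-like cells, 1 past 1.5-fold higher and 0 lower. The 1 of 12 is at the background of 8.09% and is not a result about the list. Mitf, a transcription factor of the TFEB family, had 41.8 CPM in the KO-labelled library and 26.3 CPM in the WT-labelled library, 1.59-fold higher. M6pr, a receptor gene for the mannose 6-phosphate tag of lysosomal enzymes, had 206 and 153 CPM, and Nagpa, whose enzyme uncovers that tag, 88.2 and 71.0 CPM. Tfe3 had 63.4 and 50.5 CPM, and Glb1, the lysosomal galactosidase gene, 27.6 and 34.7 CPM. These 4 were within 1.5-fold.

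Of 16 substrate and partner genes 8 reached 20 CPM, 1 past 1.5-fold higher and 0 lower, which is again near the background of 8.09% higher. H2-Ab1, an MHC class II gene, had 41.7 CPM in the KO-labelled library and 26.1 CPM in the WT-labelled library. Cd74, the gene of the invariant chain, had 80.7 and 90.6 CPM, and H2-DMb1, whose product helps load class II peptides, 168 and 147 CPM. Ifi30, a lysosomal thiol reductase gene of antigen processing, had 85.4 and 115 CPM, and Cx3cr1, the fractalkine receptor gene, 1479 and 1097 CPM. The last 4 were within 1.5-fold.

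The genes most like each member were taken by Pearson correlation of log2 levels over 8 points, the 4 classes with at least 20 cells in each library times 2 libraries, among 2312 genes. For Ctss these were Tyrobp, Trem2 and Ctsz (0.996 to 0.995), for Ctsd Tmem119, Vsir and Bcl2a1b (0.999 to 0.995), for Lgmn Ccl4, Fam105a and Ccrl2 (0.999 to 0.996), and for Cst3 H2-DMb1, Trf and Tgfbr1 (each 0.997). For Ctsa they were H2-DMa, Laptm5 and Aif1 (0.999 to 0.998), for Ctsb Hexa, Ang and Irf8 (each 0.995), for Ctsc Capza2, Fam134b and Irf5 (0.990 to 0.982), for Ctsl Tgfb1, Tmem176b and Cxcl16 (0.987 to 0.984), and for Ctsz Syngr2, Cyba and Limd2 (0.998 to 0.996). Ctsh had the lowest set of values, with Lrpap1, Rps15 and Eef1d at 0.985 to 0.974. The points of a library share its free RNA, and microglia-like cells lie far from the other classes for most genes, so the correlations are descriptions.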

How the data were processed

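The deposited matrices hold raw UMI counts per gene and barcode from 10x Genomics 3′ libraries (version 2 chemistry), per the labels' protocols. The gene and barcode lists beside them hold names. The submitters' processing notes name Cell Ranger 2.0.1, STAR, Seurat 2.1.0 and the builds mm10 and GRCm38.p5 without saying what each was used for. No source used here says if counting used strand. Without strand, reads of Ctsa and the overlapping Neurl2 and Pltp, of Ctsb and Fdft1, of Ctsc and Gm26522, of Ctsl and Gm47123, and of Ctsz and Nelfcd cannot be told apart. Ctsd, Ctsl and Ctss also overlap Gm49369, Gm49230 and Hmgb1-ps5 on their own strand, so the split of their reads is uncertain.

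The members, the gene and marker lists and the rule for named genes were chosen with earlier results of these data known. Named genes are the 10 members, other cathepsins with 20 CPM, from each other list up to 5 genes with the largest ratio whose interval leaves out equality, Runx1, and the 3 genes most like each member. Others named are cell markers, sub-cluster genes and leading genes of clusters.

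A barcode was kept with 300 genes or more and no more than 10% mitochondrial UMIs, so 8 of the KO-labelled and 0 of the WT-labelled library were dropped. Both libraries were clustered together on 2000 variable genes (41 cathepsin, legumain and cystatin family genes, Runx1 and sex-linked genes left out), 30 principal components, 15 neighbours and Leiden resolution 0.5, with scanpy 1.11.5 and leidenalg 0.10.2. Sub-clusters used resolution 1. Marker lists named the clusters by a scoring rule set after the clusters were seen, and clusters 4 and 14 stayed unnamed. Doublets were kept, and the highest Scrublet scores (54 and 168 barcodes) left out in an alternative.

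UMIs were summed per class and library and divided by the class total, with exact Poisson intervals. Ratios have the KO-labelled library on top and exact conditional binomial intervals, and shares have Clopper-Pearson intervals, all at 95%. A ratio past 1.5-fold was called. For cell-level values each cell was thinned to 1500 UMIs, and no cell held fewer. The ratio intervals were run on simulated Poisson counts with known ratios. Such counts hold counting error alone, so this says nothing on the wider spread between cells given above. Alternatives changed the scaling, weighting, depth, low-count filter, doublets, clustering and free RNA. Those on free RNA outside microglia and on cytokine genes were added after seeing the data. Gene positions come from GENCODE M21, which holds 27645 of the 27998 gene identifiers.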

Additional observations from a re-analysis of the deposited data

Results flagged for a closer look

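Ctsd, Lgmn and Cst3 had opposite directions in microglia-like and endothelial-like cells. Each was higher in the KO-labelled library in microglia-like cells and lower in it in endothelial-like cells, with both intervals away from equality. The log2 ratio in microglia-like cells minus that in endothelial-like cells was 1.19 for Ctsd, 0.69 for Lgmn and 1.26 for Cst3. These differences were not tested. With estimated free RNA taken out, Ctsd was lower in both classes (log2 ratio -0.14 in microglia-like and -0.53 in endothelial-like cells), so its directions were no longer opposite. Lgmn and Cst3 were then at 0.04 and 0.08 in microglia-like cells and had no ratio in endothelial-like cells, where the estimate left less than 0 in the WT-labelled library (-729 and -3389 CPM). The summed microglia markers in endothelial-like cells were 4467 CPM in the KO-labelled library and 11419 CPM in the WT-labelled library.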

How the results depend on the processing

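Across the alternatives, 127 of 130 member values in microglia-like cells kept their sign, 64 of 67 in endothelial-like cells and 65 of 66 in pericyte or smooth muscle-like cells. Ctss and Ctsh, the 2 members past 1.5-fold, kept theirs in 26 of 26. Ctss was between -0.97 and -0.61 and Ctsh between -0.80 and -0.60 in log2 ratio. The alternatives reuse cells of the same 2 libraries, so these counts are not independent checks. Lgmn ranged from 0.04 to 0.44 and Cst3 from 0.08 to 0.43. Taking out estimated free RNA moved the medians most in each class. It put the members' median log2 ratio in microglia-like cells at -0.44 and 4 members past 1.5-fold lower, the median in endothelial-like cells at -0.13 with 2 lower and 2 higher, and that in pericyte or smooth muscle-like cells at -0.32 with 2 lower and 1 higher. In the endothelial-like and the pericyte or smooth muscle-like cells these medians are over the 7 and 6 members left with a ratio, since Ctss, Lgmn and Cst3 had none in either class and Ctsc none in the pericyte or smooth muscle-like cells. Under it Ctsb (0.21), Ctsl (0.76) and Ctsc (3.59, with 143 CPM in the KO-labelled and 11.9 CPM in the WT-labelled library) in endothelial-like cells and Ctsl (1.91) in pericyte or smooth muscle-like cells turned from lower to higher in the KO-labelled library; the cause was not tested. The share of all genes past 1.5-fold was not computed with free RNA taken out, so the counts under that step have no background beside them. Centring on the median of all genes put the endothelial-like median at -1.03. Keeping microglia-like cells at or below the median cytokine sum put the microglia-like median at -0.22. The background share past 1.5-fold lower in microglia-like cells was 12.5%, 11.8% with a minimum of 50 CPM and 20.01% with at least 1 UMI in each library. No paired analysis was possible because each group had 1 library. With 1 library per group, no interval covers the spread between animals or libraries, and the KO-labelled library was the shallower (3715.5 against 6376 median UMIs).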

Other observations

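Cluster 14 held 0 cells of the KO-labelled library and 16 of the WT-labelled library and stayed unnamed. Without the cell filter, a cluster that also had Cst7, Apoe and Apoc1 among its leading genes held 1 and 16 cells. The microglia markers of cluster 14 summed to 31103 CPM, beside 30643 CPM in microglia-like cells of the WT-labelled library. It was looked at after its values were seen. Its leading genes included Cst7, which encodes the leukocyte inhibitor cystatin F and had 127 CPM (51.0 to 261) from 7 UMIs, with the lipid-carrier genes Apoe and Apoc1. The 10 genes took 7.96% of the UMIs of cluster 14, with Cst3 at 55990 CPM (54032 to 58000), Ctss at 8809 CPM (8043 to 9628) and Ctsd at 6344 CPM (5697 to 7045). In microglia-like cells of the WT-labelled library they took 6.32%, with Cst3 at 40656, Ctss at 6946 and Ctsd at 6109 CPM. The median depth of the cells of cluster 14 was 3252 UMIs.

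Erythrocyte-like cells held Ctsh at 63.8% of the level in microglia-like cells in the KO-labelled library and 63.7% in the WT-labelled library, above all 12 microglia markers in both. The 11 endothelial markers summed to 11429 CPM in these barcodes in the KO-labelled library and 11553 CPM in the WT-labelled library. Their part in the Ctsh level was not tested.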
